A study of Mus musculus with 38 samples.

Results

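The 39 genes described here encode the enzymes and carriers that take up glucose, split it in glycolysis, divert it into the pentose phosphate pathway and burn its carbon in the tricarboxylic acid (TCA) cycle. They were chosen by name, and every probe set annotated to exactly 1 of these symbols was used: 36 of the 39 genes had such a probe set, of 18194 genes in all, through 88 probe sets. Of the 36, 35 passed the filter on low values and were tested, and Gapdh, which is represented only by 3 of the manufacturer's control probe sets, was fitted separately. G6pdx, Eno1 and Gpi1, which encode glucose-6-phosphate dehydrogenase, an enolase and a glucose-6-phosphate isomerase, were not analysed here.

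RNA came from whole bone marrow of 38 C57BL/6 mice, male or female, 1 array per mouse. Of these, 34 had leukaemia, which was started by infecting c-kit+ marrow progenitors with a retrovirus carrying an MLL fusion oncogene and transplanting them into lethally irradiated syngeneic mice. By fusion these were 9 mice with MLL-AF1p, 8 with MLL-AF10, 5 each with MLL-GAS7 and MLL-AF9, and 7 with MLL-ENL. They were compared with marrow of 4 wild-type mice, which carried no retrovirus and for which no irradiation or transplant is stated, so these procedures and the leukaemia cannot be told apart. Leukaemic samples still hold whatever host marrow was left at euthanasia, and whether mice of a cohort shared a pool of infected donor cells is not stated. Leukaemic mice carry the names of their labels, such as MLL-GAS7_407.

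Glycolysis turns 1 glucose into pyruvate in the cytosol with a small yield of ATP and NADH, and lactate dehydrogenase recycles the NADH by reducing pyruvate to lactate. The pentose phosphate pathway branches off at glucose-6-phosphate and provides NADPH and ribose, while pyruvate dehydrogenase passes pyruvate on as acetyl-CoA to the mitochondrial TCA cycle. Many steps have several isoenzymes with tissue-specific use, and immature and dividing blood cells as well as neutrophils are known for active glycolysis.

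Glycolytic genes are textbook targets of the hypoxia-inducible factors and of MYC, whose sites share the letters ACGTG. Windows of 300 bases around each transcription start, most of them upstream, were searched for ACGTG on both strands, a search that also finds the palindrome CACGTG, which was counted separately. The windows are those of RefSeq on mouse GRCm38.p6, in which 37 of the 39 genes matched with 56 windows. Windows of 4 genes are shown: 3 genes of glycolysis and lactate formation that rose and hold the letters, and Tpi1, which rose in every leukaemia and whose window holds none. Capitals mark ACGTG, or CACGT where it lies on the other strand.
Ldha, chr7:46845554-46845853, plus strand: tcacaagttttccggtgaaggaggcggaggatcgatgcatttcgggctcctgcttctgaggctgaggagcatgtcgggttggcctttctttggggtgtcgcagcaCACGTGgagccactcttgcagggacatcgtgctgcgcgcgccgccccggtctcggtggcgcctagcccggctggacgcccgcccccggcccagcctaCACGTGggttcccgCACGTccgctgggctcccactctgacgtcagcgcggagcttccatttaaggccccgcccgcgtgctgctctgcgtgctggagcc
Pgk1, chrX:106186850-106187149, plus strand: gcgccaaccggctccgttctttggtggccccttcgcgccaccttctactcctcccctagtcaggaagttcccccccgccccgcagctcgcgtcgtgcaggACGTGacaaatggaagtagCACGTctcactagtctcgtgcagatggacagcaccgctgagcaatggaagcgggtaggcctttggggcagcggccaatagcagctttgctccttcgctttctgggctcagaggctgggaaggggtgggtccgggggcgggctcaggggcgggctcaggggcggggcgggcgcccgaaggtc
Pgam1, chr19:41911621-41911920, plus strand: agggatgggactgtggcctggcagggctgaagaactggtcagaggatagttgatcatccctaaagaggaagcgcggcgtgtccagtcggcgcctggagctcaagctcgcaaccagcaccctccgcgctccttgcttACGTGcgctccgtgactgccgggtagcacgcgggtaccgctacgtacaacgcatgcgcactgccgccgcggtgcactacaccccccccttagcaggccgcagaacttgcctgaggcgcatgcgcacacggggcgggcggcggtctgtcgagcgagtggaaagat
Tpi1, chr6:124814109-124814408, minus strand: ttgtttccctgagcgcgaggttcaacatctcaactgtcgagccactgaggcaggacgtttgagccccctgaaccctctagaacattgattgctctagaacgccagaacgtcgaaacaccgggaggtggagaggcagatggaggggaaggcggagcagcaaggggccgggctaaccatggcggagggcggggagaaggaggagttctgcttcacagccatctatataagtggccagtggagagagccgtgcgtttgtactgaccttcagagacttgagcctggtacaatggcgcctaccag

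The Ldha window shown held ACGTG at 5 places counted over both strands, 4 of which come from 2 copies of CACGTG. At least 1 window of 16 of the 37 genes held ACGTG, and of the 56 windows 23 did, against 6447 of 32851 windows of all genes (19.6%). By pathway the 16 genes were 7 of 12 genes of the glycolytic chain, 3 of 3 hexokinases, 2 of 10 TCA genes and 1 of 6 pentose phosphate genes. The others were 1 of 1 glucose transporter gene, 1 of 2 lactate dehydrogenase genes and 1 of 3 genes of pyruvate dehydrogenase and its kinase. Of all 27025 genes with a window, 5886 (21.8%) held the letters. The TCA and pentose phosphate shares, 20% and 16.7%, were near that of all genes. CACGTG was in windows of 3 of the 37 genes, Ldha, Ogdh and Pfkm, and in 8.09% of all genes, a like share, and 7.15% of all windows. Windows of 1 gene overlap, so these shares are descriptions. Whether the letters bear on expression was not tested.

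In leukaemic marrow, averaged over the 5 cohorts, 22 of the 35 tested genes rose and 4 fell against normal marrow. Over all 13333 genes tested, 29.1% rose and 12.8% fell (41.9% either way). The rises lay along the glycolytic chain (8 of 9 genes), in pyruvate dehydrogenase and its kinase (3 of 3) and in the TCA cycle (7 of 11), with 1 of 2 glucose transporters, 2 of 3 hexokinases and 1 of 2 lactate dehydrogenase genes. None of the 5 pentose phosphate genes passed the test in either direction. The 4 genes that fell were the glucose transporter gene Slc2a3, the hexokinase gene Hk1, the phosphofructokinase gene Pfkm and the TCA gene Ogdh. Genes were called in limma when the p adjusted by Benjamini-Hochberg was under 0.05, and levels and changes are on the scale log2(intensity + 46.1). The median change of the 35 genes was 0.51, beside 0.16 for all genes, and the median of all genes depended on scaling: it was 0.04 with the intensities as deposited and 0.09 after quantile normalization. With those scalings 21 and 19 of the 35 genes rose and 5 fell under either. Leaving out 1 mouse at a time gave 18 to 22 rises and 3 or 4 falls. Without the 5 arrays whose hybridisation controls were brightest 23 rose and 4 fell, and without the 3 leukaemia arrays of highest median 24 and 4.

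**Figure D1:**
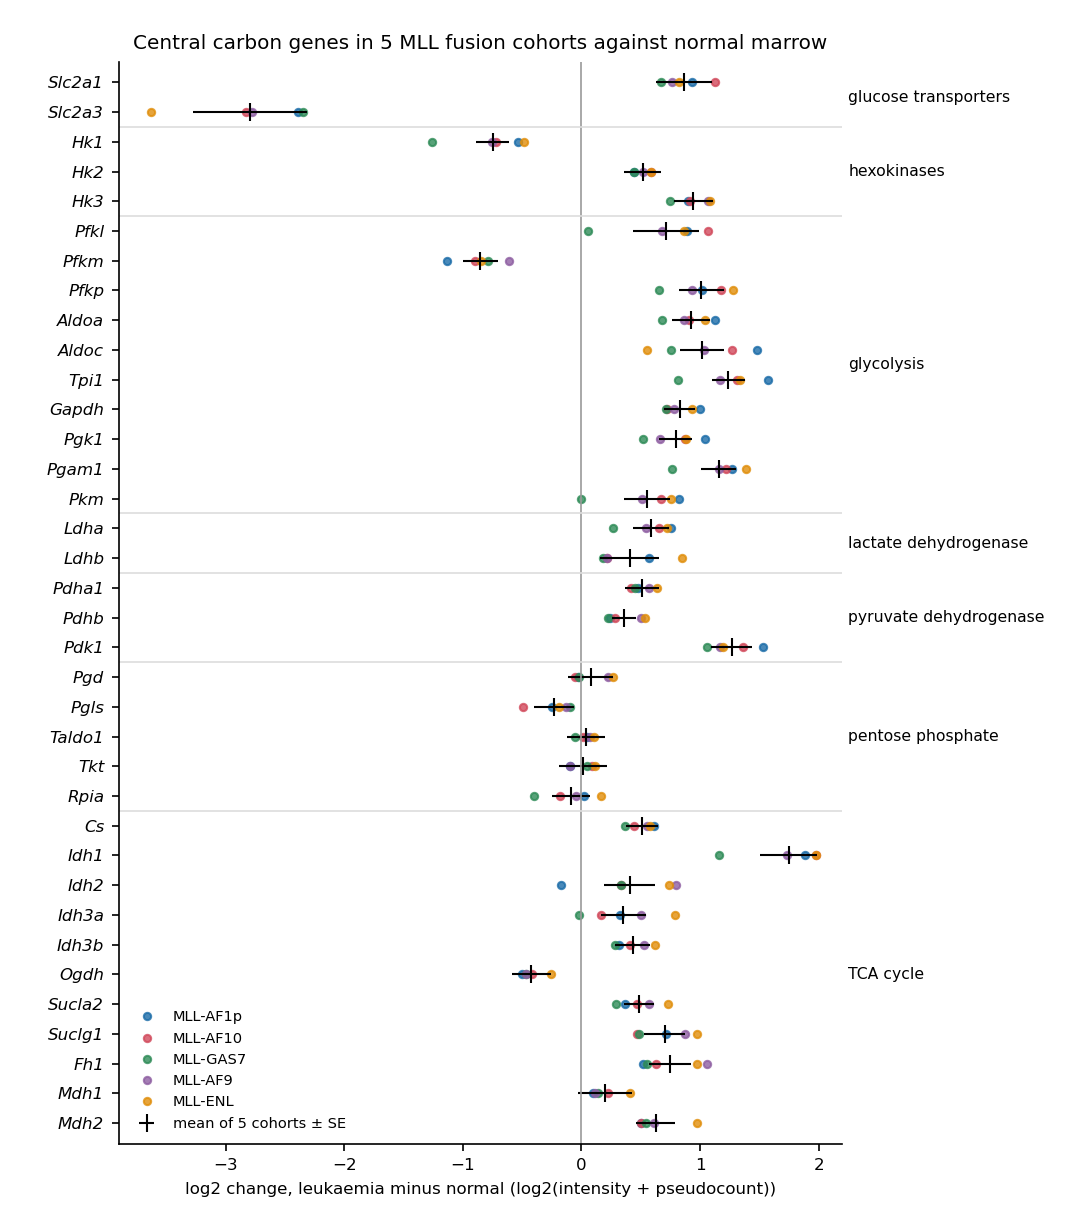
Change of each gene between leukaemic and normal marrow, in log2 units on the horizontal axis, with genes grouped by pathway. Coloured points are the 5 cohorts against the same 4 normal mice, and the black mark is their mean with its standard error. Glycolytic genes lie mostly to the right of 0, the 5 pentose phosphate genes lie around 0, and Slc2a3 lies farthest to the left at -2.79.

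The genes that mark cell types differed widely between leukaemic and normal marrow. The pan-leukocyte gene Ptprc overlapped, at 12.57 to 13.84 in leukaemic and 13.28 to 13.74 in normal mice, and all 3 genes known to be raised by MLL fusions rose. Of 7 erythroid marker genes tested, 6 fell, and their summed level was 9.79 to 10.74 in leukaemic and 15.84 to 16.36 in normal mice. All 7 B cell genes, all 7 T and NK cell genes, 5 of 6 megakaryocyte and platelet genes, 6 of 7 resident macrophage genes, 4 of 5 eosinophil, basophil and mast cell genes and 5 of 5 stromal genes fell, while the other resident macrophage gene rose. Monocyte genes rose (6 of 6), as did 3 of 4 primary granule genes. Of 9 late neutrophil genes 5 fell, with sums of 15.33 to 18.85 in leukaemic and 17.83 to 18.48 in normal mice. Of 7 genes of mitosis 5 fell. Fewer cells of a type and less RNA per cell cannot be told apart in whole marrow, and the part of cell makeup in the results below was not tested.

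Glucose enters blood cells through facilitative transporters, of which 2 were measured, and they moved in opposite directions. Slc2a1 (GLUT1, the widespread basal transporter) had a lowest, median and highest level of 8.81, 9.86 and 10.62 in leukaemic mice, against 8.08, 8.93, 9.26 and 9.49 in the 4 normal mice. The groups overlapped, and 26 of 34 leukaemias lay above all normals. Slc2a1 rose by 0.86 ± 0.24 (SE, adjusted p = 0.00319), a 1.82-fold rise. Without normal mouse 1, the lowest, the change was 0.58 with an adjusted p of 0.0741. The Slc2a1 probe set 1426600_at rose by 0.64 ± 0.16 (adjusted p = 0.00166 among all probe sets), with 32 leukaemias above all normals. Another, 1426599_a_at, changed by 0.49 and did not pass (0.098).

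Slc2a3 (GLUT3, a high-affinity transporter) had levels of 8.91, 10.86 and 12.79 in leukaemic mice (lowest, median, highest), against 13.29, 13.31, 13.51 and 13.76 in normal mice. Every one of the 34 leukaemias lay below every normal, as did 4.08% of all genes tested. Slc2a3 fell by 2.79 ± 0.48 on the log2 scale (adjusted p = 1.14e-05), or 6.93-fold. All 4 probe sets of the gene fell, with changes of -2.24 to -3.38. Slc2a3 also varied widely among leukaemias: MLL-GAS7_407 had 12.79 and MLL-ENL mice had a median of 9.41. Late neutrophil marker sums varied as well, within the ranges given above, and their part in the Slc2a3 levels was not tested. Within an array, Slc2a3 minus Slc2a1 averaged 0.84 in leukaemias and 4.53 in normal mice, and the groups did not overlap (change -3.69, exact permutation test over 73815 splits, adjusted over 9 pairs p = 6.1e-05).

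**Figure D2:**
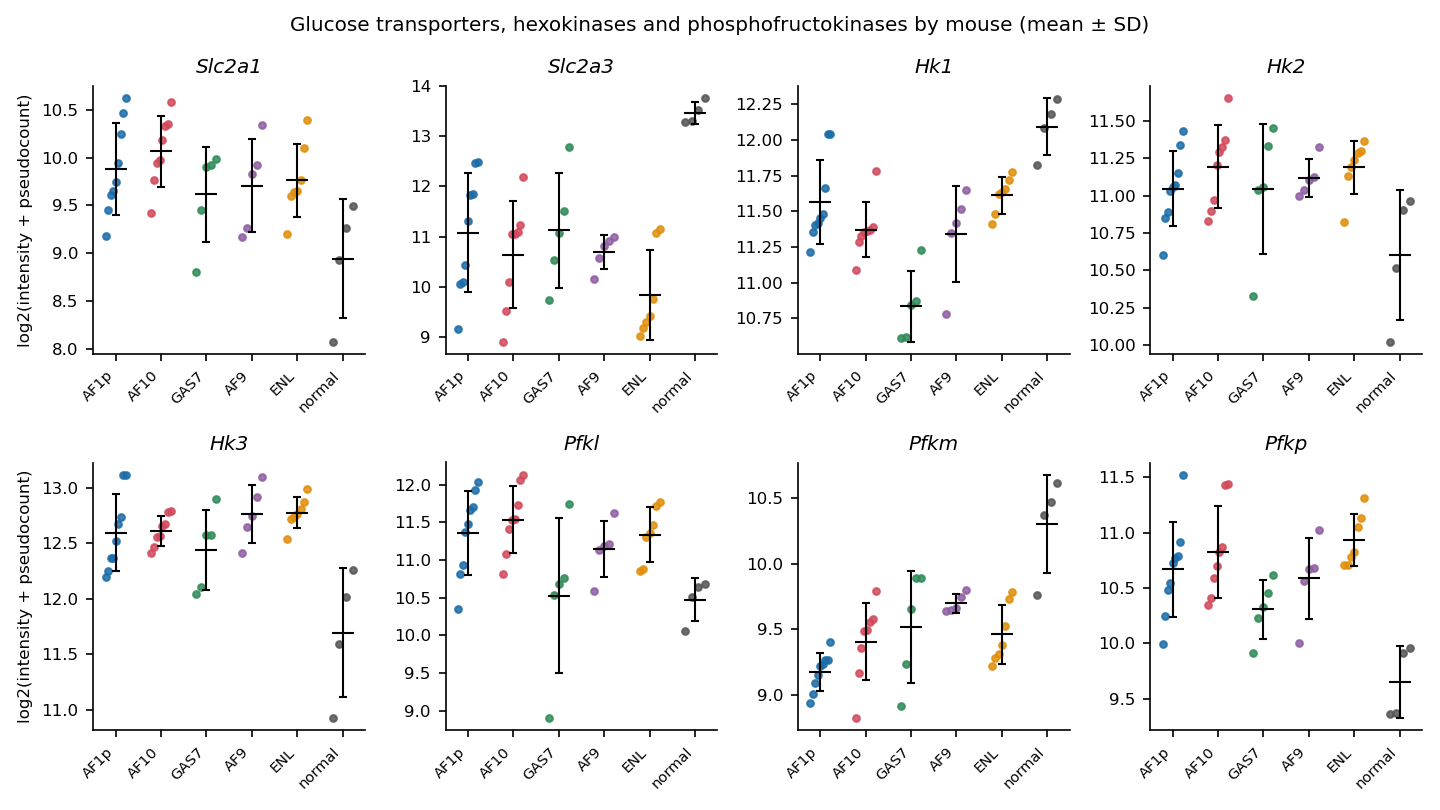
Levels of 2 glucose transporters, 3 hexokinases and 3 phosphofructokinases in each mouse, as log2(intensity + 46.1), by cohort with normal marrow at the right. Points are mice and black marks are means with SD. Slc2a3 of all 34 leukaemias lies below the 4 normals, and Hk1 and Pfkm are lower while Hk2, Hk3 and Pfkp are higher.

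Hexokinases trap glucose as glucose-6-phosphate, and their 3 genes did not move together. Hk1 encodes the widespread form, of which human red cells carry a variant of their own. Its level was 10.61, 11.41 and 12.04 in leukaemic mice (lowest, median, highest) and 11.82, 12.08, 12.18 and 12.29 in normal mice. Of the leukaemias 32 lay below all normals, and Hk1 fell by 0.75 ± 0.14 on the log2 scale (adjusted p = 2.6e-05). A second Hk1 probe set fell by 1.69 ± 0.53 on the log2 scale (adjusted p = 0.0112, among 29004 probe sets), with levels of 6.70 to 10.76 in leukaemic mice against 10.67 to 11.04 in normal mice. Erythroid marker sums, given above, did not overlap between the groups.

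Hk2, the insulin-responsive form that is high in many tumours, had levels of 10.33, 11.13 and 11.65 in leukaemic mice, against 10.02, 10.52, 10.90 and 10.96 in normal mice. It rose by 0.52 ± 0.16 (adjusted p = 0.007), with 27 of 34 leukaemias above all normals, but without normal mouse 1 the change was 0.32 with an adjusted p of 0.128. Hk3, a form known from myeloid cells, had 12.04, 12.66 and 13.12 in leukaemic mice and 10.92, 11.59, 12.01 and 12.26 in normal mice. It rose by 0.94 ± 0.17 (adjusted p = 1.54e-05), with 30 leukaemias above all normals. Monocyte marker genes rose beside it, with sums of 14.51 to 16.28 in leukaemic and 13.40 to 14.22 in normal mice.

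The balance between isoenzymes was compared within each array, which removes differences in array brightness. Hk3 minus Hk1 averaged 1.25 ± 0.30 in leukaemias and -0.40 ± 0.75 in normal mice (SD, n = 34 and 4), with all leukaemias above all normals (change 1.65, exact permutation adjusted p = 6.1e-05). Hk2 minus Hk1 averaged -0.27 ± 0.38 in leukaemias and -1.49 ± 0.58 in normal mice, with 33 leukaemias above all normals (change 1.22, exact permutation adjusted p = 8.13e-05). These differences set probe sets of different brightness side by side, so only their change between groups is a measurement and not their sign.

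Phosphofructokinase commits glucose to glycolysis, and its 3 subunit genes split as the hexokinases did. Pfkp, the platelet-type subunit, had 9.91, 10.70 and 11.52 in leukaemic mice against 9.36, 9.37, 9.92 and 9.95 in normal mice. It rose by 1.01 ± 0.19 (adjusted p = 4.23e-05), or 2.02-fold, with 33 of 34 leukaemias above all normals. A further Pfkp probe set changed by 0.04 and did not pass.

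Pfkl, the liver-type subunit, had 8.90, 11.36 and 12.13 in leukaemic mice against 10.05, 10.51, 10.64 and 10.68 in normal mice, and rose by 0.71 ± 0.28 (adjusted p = 0.0385). That call was lost with deposited scaling (adjusted p = 0.0514), with quantile normalization (0.0567) and without any 1 of the 4 normal mice (0.0559 to 0.171). The lowest value belonged to MLL-GAS7_407. The Pfkl probe sets 1453541_at and 1450269_a_at also rose, by 0.69 and 0.51 (adjusted p = 0.000131 and 0.0287 among all probe sets). Averaged over its probe sets, Pfkl rose by 0.63 (adjusted p = 0.00369). Pfkm, the muscle-type subunit, which human red cells carry together with the liver type, had 8.82, 9.39 and 9.89 in leukaemic mice against 9.76, 10.37, 10.47 and 10.61 in normal mice. It fell by 0.85 ± 0.15 on the log2 scale (adjusted p = 1.09e-05), with 29 leukaemias below all normals. Pfkm minus Pfkl averaged -1.83 in leukaemias and -0.17 in normal mice (change -1.66, exact permutation adjusted p = 0.000305), while the change of Pfkp minus Pfkl, 0.27, did not pass (exact permutation p = 0.408).

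From aldolase to pyruvate kinase the tested genes of the chain all rose. Tpi1, which interconverts the 2 triose phosphates, had 11.75, 12.68 and 13.42 in leukaemic mice against 11.21, 11.34, 11.40 and 11.59 in normal mice. It did not overlap between the groups in any of 34 leukaemias, as held for 4.85% of all genes, and rose by 1.24 ± 0.14 (adjusted p = 5.1e-09), or 2.36-fold. Its window above holds no ACGTG. Pgam1, which moves the phosphate of 3-phosphoglycerate, had 12.76, 13.75 and 14.18 in leukaemic mice against 12.15, 12.38, 12.44 and 13.08 in normal mice. It rose by 1.16 ± 0.15 (adjusted p = 5.02e-08), with 32 leukaemias above all normals.

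Aldoa and Aldoc encode aldolases, which split fructose-1,6-bisphosphate, and both rose. Aldoa had 13.27, 13.90 and 14.51 in leukaemic mice against 12.51, 12.69, 13.31 and 13.39 in normal mice (change 0.92 ± 0.16, adjusted p = 1.76e-05). Aldoc had 7.80, 8.88 and 9.76 in leukaemic mice against 7.43, 7.65, 7.95 and 8.13 in normal mice (change 1.02 ± 0.18, adjusted p = 2.64e-05). Their balance within arrays changed by -0.11 and did not pass (exact permutation p = 0.669).

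Pgk1, the first ATP-forming step, had 14.03, 14.54 and 15.23 in leukaemic mice against 13.36, 13.40, 13.94 and 14.12 in normal mice. It rose by 0.79 ± 0.14 (adjusted p = 1.35e-05), with 33 leukaemias above all normals. Gapdh, which forms 1,3-bisphosphoglycerate and is often taken as an unchanging control, had 14.61, 15.19 and 15.64 in leukaemic mice against 14.06, 14.15, 14.24 and 14.84 in normal mice. In the fit that admitted its control probe sets it rose by 0.83 ± 0.13 (adjusted p = 2.81e-06), and its 3 probe sets changed by 0.81, 0.83 and 0.91. Pkm, the pyruvate kinase of most tissues, had 12.71, 13.75 and 14.48 in leukaemic mice against 12.71, 12.95, 13.33 and 13.53 in normal mice. It rose by 0.55 ± 0.20 (adjusted p = 0.0215), a call lost with quantile normalization (0.195) and without normal mouse 1 (0.146) or 4 (0.0891).

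Lactate dehydrogenase is a tetramer of A and B subunits. Ldha, whose subunit favours lactate formation, had 12.83, 13.50 and 14.01 in leukaemic mice against 12.53, 12.78, 13.02 and 13.12 in normal mice. It rose by 0.59 ± 0.15 (adjusted p = 0.00151), with 29 leukaemias above all normals. Ldhb had 8.91, 10.05 and 11.58 in leukaemic mice against 9.44, 9.74, 9.79 and 9.79 in normal mice. Its change of 0.41 ± 0.25 did not pass (adjusted p = 0.198), although Ldhb was called higher in MLL-ENL (0.85, adjusted p = 0.0191). The other Ldhb probe sets changed by 1.14, 0.69 and 0.44, and none passed (adjusted p = 0.053, 0.0771 and 0.431 among all probe sets). The difference between the subunits was not settled: Ldha minus Ldhb changed by 0.19 (exact permutation p = 0.535), and by -0.10 when all probe sets of a gene were averaged.

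Pyruvate dehydrogenase and its inhibitor rose together. Pdha1 and Pdhb, the 2 subunits of the E1 component, rose by 0.51 ± 0.15 (adjusted p = 0.00443) and 0.36 ± 0.10 (adjusted p = 0.00358), although Pdhb did not pass with quantile normalization (0.112). Pdk1, the kinase that switches this enzyme off, had 9.63, 10.39 and 11.01 in leukaemic mice against 8.69, 9.06, 9.11 and 9.50 in normal mice. No leukaemia overlapped with the normals, and the rise was 1.27 ± 0.17 (adjusted p = 1.75e-07), or 2.40-fold. Of its 4 probe sets 3 rose, by 0.996 to 1.39, and 1 did not pass with 0.21.

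**Figure D3:**
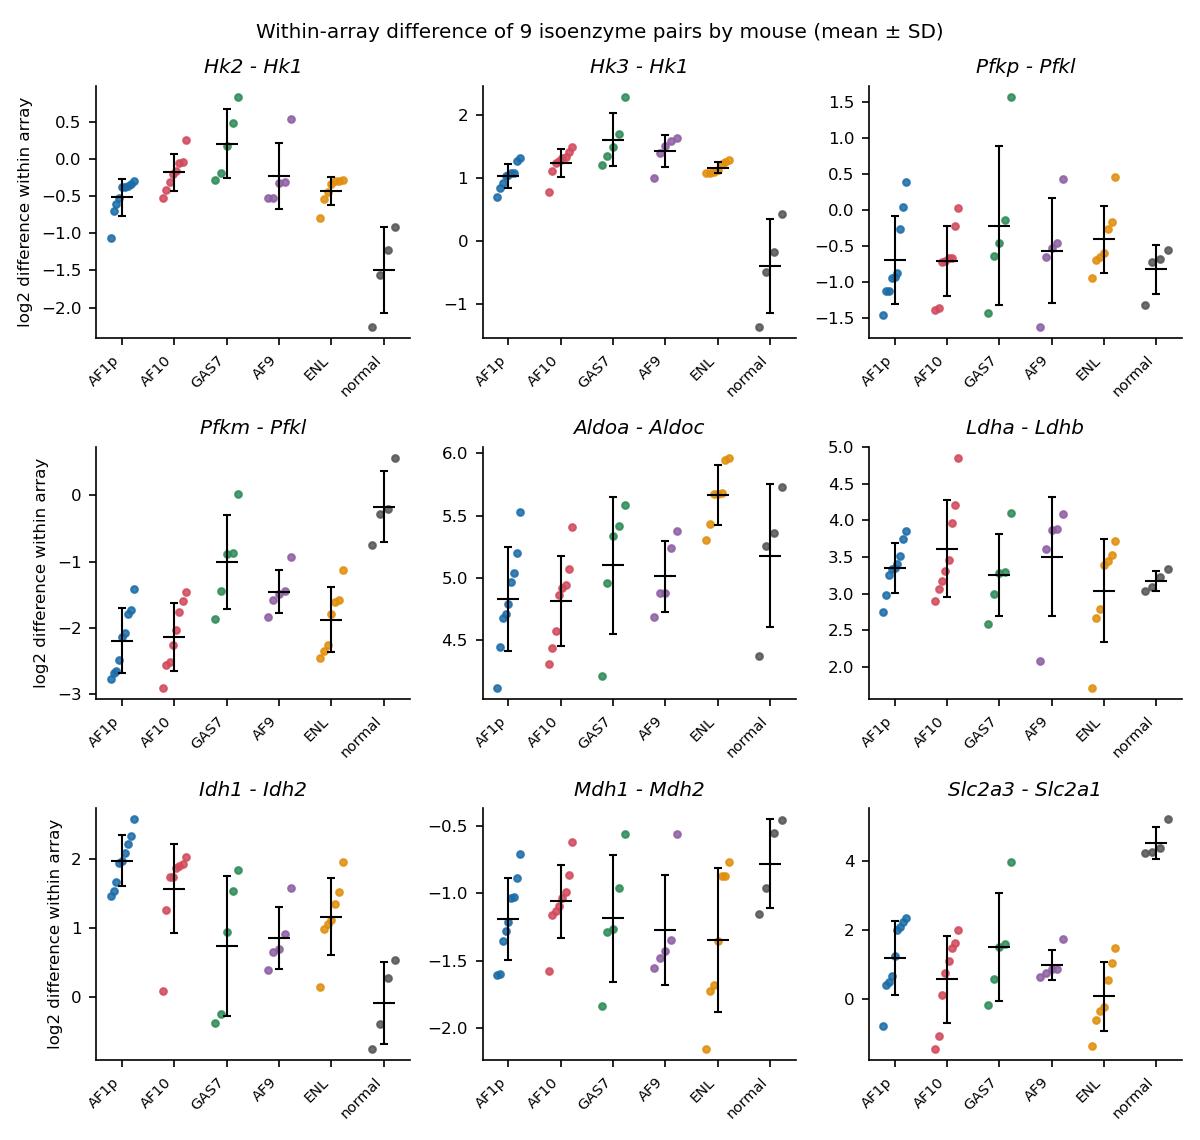
Difference between 2 isoenzyme genes within each array, in log2 units, for 9 pairs, by cohort with normal marrow at the right. Points are mice and black marks are means with SD. Hk3 minus Hk1 lies above the normals in 34 of 34 leukaemias and Slc2a3 minus Slc2a1 below them in 34 of 34, while Aldoa minus Aldoc and Ldha minus Ldhb overlap.

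None of the pentose phosphate genes passed the test over the 5 cohorts, as stated above. Their median change was 0.01, below the 0.16 of all genes. Tkt and Taldo1, the transketolase and transaldolase of the non-oxidative branch, changed by 0.01 ± 0.20 and 0.04 ± 0.16, and both turned negative with deposited scaling (-0.12 and -0.09) and quantile normalization (-0.38 and -0.24). Rpia, which isomerises ribose-5-phosphate, changed by -0.09 ± 0.16. Pgls, the lactonase of the oxidative branch, changed by -0.23 ± 0.17 (adjusted p = 0.274), and passed as lower with deposited scaling (-0.36, adjusted p = 0.0282) and quantile normalization (-0.42, adjusted p = 0.00742). In MLL-AF10 leukaemias alone Pgls was called lower against normal (-0.49, adjusted p = 0.0404), and no other pentose phosphate gene was called in any single cohort.

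For Pgd, the NADPH-forming 6-phosphogluconate dehydrogenase, the answer depended on the probe set. The brightest, 1423706_a_at, which stood for the gene, had 12.22, 13.37 and 13.94 in leukaemic mice against 12.97, 13.11, 13.27 and 13.54 in normal mice, a change of 0.08 ± 0.19 (adjusted p = 0.778). It turned to -0.05 with deposited scaling and -0.19 with quantile normalization. The probe sets 1436771_x_at, 1437380_x_at and 1438627_x_at rose by 0.80 ± 0.15, 0.60 ± 0.13 and 0.65 ± 0.12, with adjusted p of 7.28e-05, 0.000392 and 3.71e-05 among all probe sets. In these 3, between 27 and 32 leukaemias lay above all normals, against 8 for the first. By the manufacturer's naming, x marks probe sets with probes that may bind other transcripts too. The probe sets that stood for Tpi1, Pgk1, Aldoa, Hk3, Tkt and Mdh1 carry the same mark. Without probe sets marked x or s, Tpi1, Pgk1, Hk3 and Mdh1 rose by 1.26, 0.58, 0.76 and 0.61. In that fit Tkt changed by -0.15, and Aldoa had no value. Averaged over its 4 probe sets, Pgd rose by 0.53 (adjusted p = 0.00114), so a count of 0 pentose phosphate genes rests on the choice of probe set.

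**Figure D4:**
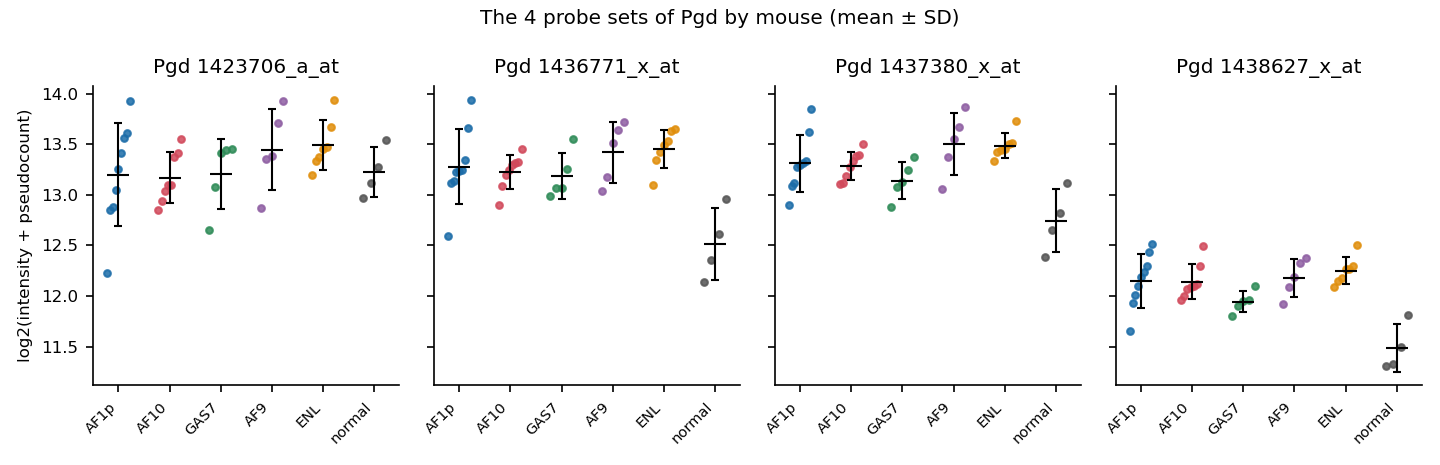
Level of Pgd by each of its 4 probe sets in each mouse, as log2(intensity + 46.1), by cohort with normal marrow at the right. Points are mice and black marks are means with SD. In the first probe set leukaemic and normal mice overlap, with a change of 0.08, and in the other 3 most leukaemias lie above the normals.

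In the TCA cycle 7 of 11 genes rose, 1 fell and 3 did not pass. Idh1, the NADP-dependent isocitrate dehydrogenase of cytosol and peroxisomes, had the largest rise of the 35 genes. Its level was 10.91, 12.31 and 13.16 in leukaemic mice against 9.96, 9.96, 10.95 and 11.19 in normal mice. It rose by 1.75 ± 0.24 (adjusted p = 1.9e-07), or 3.36-fold, with 33 leukaemias above all normals. A second Idh1 probe set rose by 1.05 ± 0.21 (adjusted p = 0.0001 among all probe sets), and the average of both by 1.40. Both are marked s, so Idh1 had no value in the fit without probe sets marked x or s. Idh2, its mitochondrial counterpart, had 9.70, 10.89 and 12.00 in leukaemic mice against 10.35, 10.65, 10.67 and 10.71 in normal mice, and its change of 0.41 ± 0.22 did not pass (adjusted p = 0.134). By cohort Idh2 was called higher in MLL-AF9 (0.80, adjusted p = 0.0228) and MLL-ENL (0.73, adjusted p = 0.0203), while its change in MLL-AF1p was -0.17. A second, dimmer Idh2 probe set changed by -0.17 ± 0.14 over the 5 cohorts (adjusted p = 0.372 among all probe sets). The average of both changed by 0.12 (adjusted p = 0.569). Idh1 minus Idh2 averaged 1.36 ± 0.74 in leukaemias and -0.08 ± 0.59 in normal mice (change 1.45, exact permutation adjusted p = 0.00176).

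Of the NAD-dependent isocitrate dehydrogenase, Idh3b rose by 0.43 ± 0.15 (adjusted p = 0.0205), a call lost without normal mouse 3 (0.0745) or 4 (0.0912), and Idh3a changed by 0.35 ± 0.19 (adjusted p = 0.135) but was called higher in MLL-ENL (0.79, adjusted p = 0.0045). Cs, the citrate synthase that opens the cycle, rose by 0.51 ± 0.13 (adjusted p = 0.0024), with 32 leukaemias above all normals. One further Cs probe set changed by 0.02 and did not pass. The succinyl-CoA ligase subunits Sucla2 and Suclg1 rose by 0.49 ± 0.13 (adjusted p = 0.0022) and 0.70 ± 0.17 (adjusted p = 0.00127). Fh1, fumarate hydratase, had 10.22, 11.39 and 12.32 in leukaemic mice against 10.63, 10.69, 10.70 and 10.71 in normal mice and rose by 0.75 ± 0.17 (adjusted p = 0.000686).

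Ogdh, the first component of the oxoglutarate dehydrogenase complex, went the other way. It had 9.54, 10.62 and 11.04 in leukaemic mice against 10.96, 10.98, 11.04 and 11.12 in normal mice, with 30 leukaemias below all normals. Ogdh fell by 0.42 ± 0.17 on the log2 scale (adjusted p = 0.0396), a call lost without any 1 of the 4 normal mice (0.0693 to 0.117). A second, dimmer Ogdh probe set changed by 0.45 ± 0.33 (adjusted p = 0.305), and their average by 0.02. Mdh2, the mitochondrial malate dehydrogenase, rose by 0.63 ± 0.16 (adjusted p = 0.00215). Mdh1, the cytosolic one, changed by 0.20 ± 0.23 (adjusted p = 0.522), but 3 of its other probe sets rose by 0.47 to 0.61 and the average of its probe sets by 0.44 (adjusted p = 0.00381). A further Mdh2 probe set changed by 0.13, a further Pdha1 probe set by 0.41, a further Pdhb probe set by 0.35, a further Slc2a1 probe set by 0.49 and a further Pgk1 probe set by 0.53, none of which passed. Over all 81 probe sets of these genes that were kept, 45 rose and 8 fell, against 24.9% and 12.1% of 29004 probe sets.

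Each cohort was also set against the same 4 normal mice, so the comparisons share their controls. MLL-ENL leukaemias had 25 of the 35 genes higher and 3 lower (30.3% and 11.1% of all genes, 41.4% either way), MLL-AF9 21 and 3 (23.7% and 9.86%), MLL-AF10 20 and 4 (24.8% and 11.8%) and MLL-AF1p 20 and 4 (24.2% and 12.3%). MLL-GAS7 leukaemias had 10 higher and 3 lower (16.7% and 10.4%), a total of 13 that was 8 without normal mouse 1 or 4 and 20 without the 3 leukaemia arrays of highest median. In all 5 cohorts Tpi1, Pgam1, Pgk1, Aldoa, Aldoc, Pfkp, Pdk1, Hk3, Idh1 and Mdh2 were called higher and Slc2a3, Hk1 and Pfkm lower. These counts differ in the number of mice behind them, from 5 to 9, and differences between cohorts were tested directly.

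Among the 5 cohorts 6 of the 35 genes differed by the F test, with 8.09% of all genes doing so: Hk1, Aldoc, Tpi1, Pkm, Idh2 and Idh3a. With array weights 13 of them did and without the 5 arrays whose hybridisation controls were brightest 3. Other kept probe sets of Hk1, Idh2 and Idh3a did not pass the F test (adjusted p = 0.854, 0.678 and 0.215 to 0.582 among all probe sets). Of the other Tpi1 probe sets, 1435659_a_at passed (0.022) and 1415918_a_at did not (0.113). In that fit over probe sets, those that stood for Pkm and Idh3a did not pass the F test (adjusted p = 0.0581 and 0.0552). The Pgk1 probe set 1417864_at and the Mdh2 probe set 1416478_a_at passed there (0.00547 and 0.0406), although neither gene was called. MLL-AF10 had 0 genes called against the mean of the other 4 cohorts, where 0.195% of all genes were higher and 0.113% lower (0.308% either way), and MLL-AF9 had 0 as well, where 0.293% were higher and 0.075% lower (0.368% either way).

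MLL-GAS7 stood apart by lower levels: 5 genes were below the mean of the other cohorts and 0 above (3.59% and 1.19% of all genes, 4.78% either way). Hk1 was 10.61, 10.62, 10.84, 10.87 and 11.23 in the 5 MLL-GAS7 mice, against cohort means of 11.34 to 11.61 in the others, a difference of -0.64 ± 0.12 (adjusted p = 0.0018). Tpi1 differed by -0.53 ± 0.13 (adjusted p = 0.0123), Pgam1 by -0.50 ± 0.14 (adjusted p = 0.0256), Pkm by -0.69 ± 0.18 (adjusted p = 0.0187) and Idh1 by -0.73 ± 0.22 (adjusted p = 0.0418). The Hk1 and Pkm calls held in 48 of 50 alternative fits, the Tpi1 call in 45, the Pgam1 call in 44 and the Idh1 call in 36 of 49. Of the alternative fits here and below, 38 each left out 1 mouse, and some others left a gene's values unchanged. They are therefore not independent of each other. Pkm was 12.71, 12.74, 13.29, 13.37 and 13.52 in MLL-GAS7 mice, within the normal range of 12.71 to 13.53. The count rested on 2 mice: it was 1, Hk1, without MLL-GAS7_407 and 3 without MLL-GAS7_410, and 1, Idh1, without the 5 arrays whose hybridisation controls were brightest, which include both. MLL-GAS7_407 also had an array median intensity of 206.8 before scaling, against 129.2 to 208.3 over all arrays. Of 4 primary granule genes 2 were lower in MLL-GAS7 too, with sums of 15.96 to 16.57 in MLL-GAS7 mice and 16.26 to 17.40 in the other cohorts. Of 3 genes known to be raised by MLL fusions 2 were lower, with sums of 12.04 to 12.98 in MLL-GAS7 mice and 12.48 to 14.10 in the other cohorts. Of 5 stromal genes 1, of 7 resident macrophage genes 1 and of 7 T and NK cell genes 1 were higher, and of 5 eosinophil, basophil and mast cell genes 1 was lower. The part of these genes in the differences was not tested.

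MLL-AF1p leukaemias had Aldoc and Tpi1 above the other cohorts and Idh2 below (0.78% of all genes higher, 1.55% lower, 2.33% either way). Aldoc was 8.66, 9.37 and 9.76 (lowest, median, highest) in MLL-AF1p mice, 0.57 ± 0.14 above the other cohorts (adjusted p = 0.0142), and Tpi1 was 12.63, 12.96 and 13.42, 0.41 ± 0.10 above them (adjusted p = 0.0235). Idh2 was 9.70, 10.43 and 10.82 in these mice, against cohort means of 10.93 to 11.40, a difference of -0.72 ± 0.16 (adjusted p = 0.00915). The Aldoc and Idh2 calls held in 50 of 50 alternative fits and the Tpi1 call in 45.

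In MLL-ENL leukaemias Idh3a and Mdh2 were above the other cohorts and Aldoc below (3.69% of all genes higher, 1.28% lower, 4.97% either way). Idh3a was 11.57, 11.73 and 12.05 in MLL-ENL mice, 0.54 ± 0.15 above the others (adjusted p = 0.0327, held in 43 of 50 alternative fits), and Mdh2 was 12.92, 13.37 and 13.59, 0.43 ± 0.13 above (adjusted p = 0.0493, held in 16 of 50 alternative fits). Aldoc was 7.80, 8.38 and 8.75 in MLL-ENL mice, a difference of -0.58 ± 0.15 (adjusted p = 0.0184, held in 48 of 50). The count of 3 was 1 without the 5 arrays whose hybridisation controls were brightest and 7 with array weights. It ran between 0 and 7 with 1 mouse left out, and moved by more than 1.5 times without MLL-GAS7_406, MLL-ENL_702, MLL-ENL_703, MLL-ENL_741, MLL-ENL_742 or MLL-ENL_774. The order of Aldoc means was MLL-AF1p 9.27, MLL-AF10 9.06, MLL-AF9 8.83, MLL-GAS7 8.55 and MLL-ENL 8.34.

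**Figure D5:**
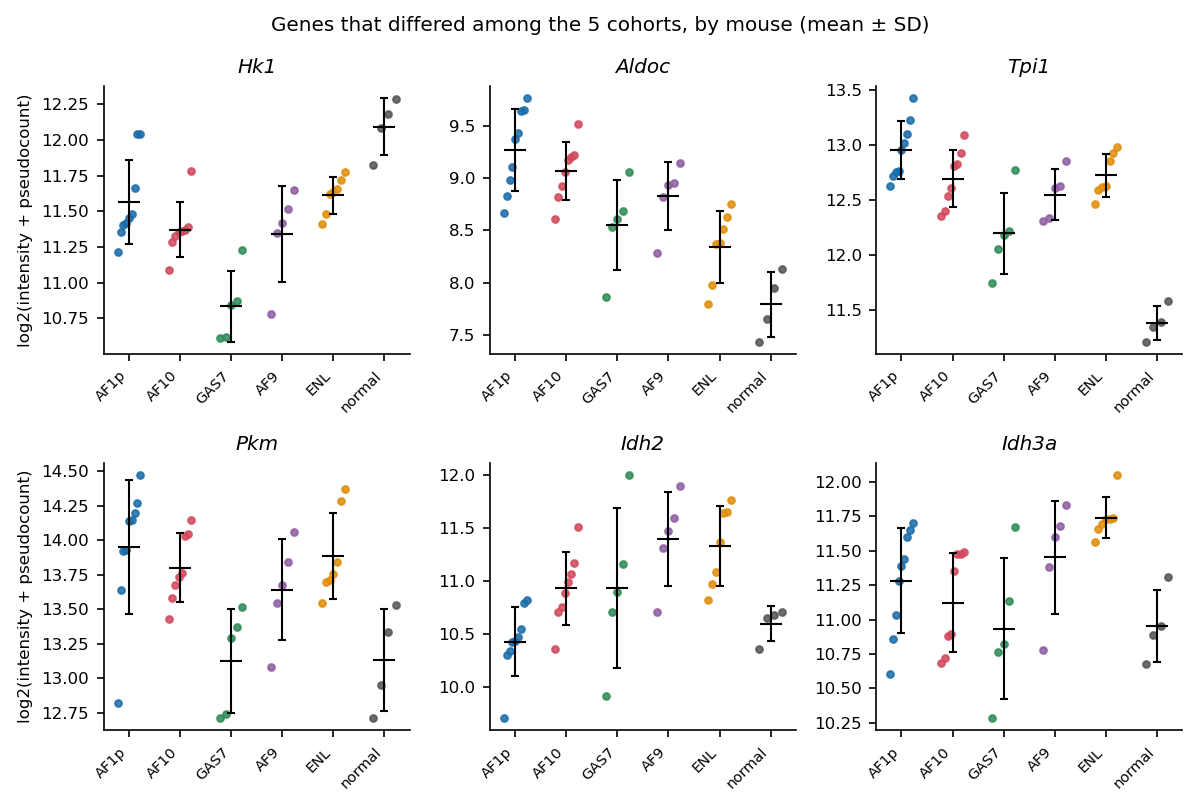
Levels of the 6 genes that differed among the 5 cohorts in each mouse, as log2(intensity + 46.1), with normal marrow at the right. Points are mice and black marks are means with SD. MLL-GAS7 lies lowest of the cohorts for Hk1, Tpi1 and Pkm, MLL-AF1p highest for Aldoc and Tpi1 and lowest for Idh2, and MLL-ENL highest for Idh3a.

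A wider list of central carbon genes was tested beside the 35. Of 52 further enzymes and carriers, 16 rose and 11 fell in leukaemia, with a median change of 0.30, and of 8 regulators 3 rose and 0 fell, where 29.1% of all genes rose and 12.8% fell. The share that rose was close to that of all genes. The 19 rises were 29 with array weights and 30 without the 3 leukaemia arrays of highest median. By size, the falls were led by Bpgm, which makes the 2,3-bisphosphoglycerate of red cells. It had 7.30, 8.10 and 8.66 in leukaemic mice against 12.95 to 14.08 in normal mice, 48.1-fold lower (change -5.59 ± 0.18, adjusted p = 1.1e-24), beside the erythroid marker sums given above. Pklr, the pyruvate kinase of liver and red cells, fell by 1.38 ± 0.25 on the log2 scale (adjusted p = 2.13e-05).

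Slc16a1, the lactate carrier MCT1, had 7.33, 9.80 and 10.88 in leukaemic mice against 11.87 to 12.70 in normal mice, a change of -2.88 ± 0.34 (adjusted p = 8.73e-09) with no overlap. Ldhc, a lactate dehydrogenase known from testis, changed by -1.75, Slc2a4, the insulin-regulated transporter, by -1.51, and Pcx, pyruvate carboxylase, by -1.32, all called. Ldhc and Slc2a4 were dim. Ldhc had 5.70, 6.27 and 8.42 in leukaemic mice against 7.74 to 8.76 in normal mice, and Slc2a4 6.41, 7.93 and 8.45 against 8.72 to 9.99. Most leukaemic values of Ldhc lay near the floor of the scale. The filter asks for 4 arrays, as many as there were normal mice. Among the rises, Fbp1, which reverses the phosphofructokinase step, changed by 1.53 ± 0.28 (adjusted p = 3.44e-05). Tigar, a fructose-bisphosphatase that lowers glycolytic flux, changed by 1.13 ± 0.18 (adjusted p = 3.83e-06). Glud1, glutamate dehydrogenase, rose by 1.06 and Pgm1, a phosphoglucomutase, by 0.92.

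The regulators with the largest rises were the MYC family genes Mycn and Myc. Mycn had 10.22, 12.12 and 16.21 in leukaemic mice against 6.58 to 7.87 in normal mice, with no overlap in 34 leukaemias (change 5.29 ± 0.30, adjusted p = 2.27e-17). Myc had 9.62, 11.16 and 12.61 in leukaemic mice against 9.56 to 10.23 in normal mice. Of 34 leukaemias 28 lay above all normals for Myc (change 1.09 ± 0.32, adjusted p = 0.00516). The remaining regulator that rose was Hif1a, a gene of the hypoxia-inducible factors (change 0.70 ± 0.16, adjusted p = 0.000701). Whether these regulators bear on the genes above was not tested.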

How the data were processed

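RNA of whole marrow from 38 mice (34 leukaemic in 5 cohorts, 4 normal) was measured on 1-colour Affymetrix mouse arrays, with total RNA extracted by Trizol from cryopreserved cells and labelled with biotin, per the labels' protocols. The deposited table gives each probe set 1 linear intensity per array, scaled by the authors, as the values show, to a mean of 500 after trimming 2% at each end. Which software made them was not given in the sources used here. Array medians were 129.2 to 208.3, and 0 columns of values were left unused. No depth applies to arrays, and the number of mice limits the precision.

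Intensities were converted to log2(intensity + 46.1), the 25th percentile being the pseudocount, and arrays were shifted to 1 median. Fold changes on this scale understate changes of dim genes. Of 45101 probe sets, 34958 carried exactly 1 symbol in GEO's platform annotation, 932 several and 9211 none, and 34754 matched a RefSeq gene by Entrez identifier, which changed 0 symbols. Probe sets above their array's median on at least 4 arrays were kept (29004), which gave 13333 genes, each represented by its brightest kept probe set. Of the 88 probe sets of the listed genes 81 were kept, 4 were not and 3 are the Gapdh controls.

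A linear model of 6 group means was fitted in limma 3.58.1 (R 4.3.3) with moderated 2-sided tests, 36.93 total degrees of freedom and Benjamini-Hochberg adjustment over all genes tested at 0.05. Isoenzyme differences within arrays were tested with a 2-sided exact permutation test over 73815 splits and adjusted over 9 pairs. The test of leukaemia against normal was checked on simulated data of 13333 genes. It called 46% of 50 genes changed 1.5-fold, 76% of 50 changed 2-fold and 100% of 50 changed 4-fold. Of the unchanged genes it called 5. Only these few genes were changed, whereas 41.9% of genes were called in the measured data. The adjustment over all genes is then stricter in the simulation, so these rates need not hold for the reported test. Alternatives covered scaling, pseudocount, filter, choice of probe set, array weights and leaving out each mouse. The Gapdh control probe sets, leaving out the 5 arrays whose hybridisation controls were brightest and leaving out the 3 leukaemia arrays of highest median were added after seeing the data.

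The genes described and all other lists were chosen with earlier results of these data known. All listed genes could be named. Of the wider list, the 6 called genes with the largest rise and the 6 with the largest fall were named, and Hif1a as the remaining regulator that rose.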

Additional observations from a re-analysis of the deposited data

Results flagged for a closer look

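Within groups of 4 to 9 mice, 16 of 216 combinations of gene and group had 1 mouse far from the others, where chance gives about 1 in 20. Values are log2(intensity + 46.1). MLL-AF1p_801 was low for Pkm (12.82) and Pdha1 (11.10), and MLL-AF1p_803 was low for Idh2 (9.70) and Fh1 (10.22). MLL-AF10_783A was high for Hk1 (11.79). MLL-GAS7_407 was low for Ogdh (9.54) and MLL-GAS7_410 high for Pgk1 (14.68). MLL-AF9_305 was high for Ldhb (10.76). MLL-ENL_702 was low for Hk2 (10.82) and high for Pgk1 (14.88), and MLL-ENL_742 was low for Taldo1 (13.00) and high for Idh3a (12.05). In normal marrow, mouse 4 was low for Ldhb (9.44) and Idh2 (10.35), mouse 2 high for Rpia (12.00) and mouse 3 low for Mdh1 (11.35). MLL-AF1p_801, MLL-AF1p_803 and MLL-GAS7_407, which hold 5 of these values, are also the 3 leukaemia arrays with the highest median intensity.

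The change from normal marrow differed between the cohorts for 6 genes by the F test among them in limma, with adjusted p-values of 0.00297 for Aldoc, 0.00397 for Hk1, 0.0104 for Tpi1, 0.0114 for Idh2, 0.0465 for Idh3a and 0.0492 for Pkm.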

How the results depend on the processing

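Of 418 comparisons of a gene's leukaemia change under an alternative, 391 kept the direction and the side of the threshold. So did 1307 of 1330 fits that left out 1 mouse. Part of this agreement was fixed in advance. Changing the filter or admitting the Gapdh controls left the change of every tested gene as it was and moved only its adjusted p. Genes with 1 kept probe set had the same change when probe sets were averaged. The split of calls over all genes moved with scaling: 69.4% of them were higher in the reported fit, 57% with deposited scaling and 60.5% with quantile normalization. With deposited scaling, quantile normalization and the larger pseudocount, in that order, Tkt changed by -0.12, -0.38 and -0.032 and Taldo1 by -0.093, -0.24 and -0.0086. Under the first 2 of these Pgd changed by -0.051 and -0.19, and MLL-AF1p had 5 genes called against the other cohorts. With the larger pseudocount Aldoa minus Aldoc changed by 0.11. With the mean of all probe sets, Tkt changed by -0.016, Ogdh by 0.016, Ldha minus Ldhb by -0.10, Mdh1 minus Mdh2 by 0.056 and Pfkp minus Pfkl by -0.032. Without probe sets marked x or s, Tkt changed by -0.15. With array weights 13 genes differed among the cohorts, 7 in MLL-ENL against the others, and 29 genes of the wider list rose. Without the 5 arrays whose hybridisation controls were brightest, Aldoa minus Aldoc changed by 0.018, Mdh1 minus Mdh2 by -0.50 (exact permutation adjusted p = 0.0495), 3 genes differed among cohorts, and MLL-ENL and MLL-GAS7 each had 1 gene called against the others. Without the 3 leukaemia arrays of highest median MLL-GAS7 had 20 genes called against normal and 3 against the others, and 30 genes of the wider list rose, against 19 in the reported fit. The causes were not tested.

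Leaving out 1 mouse at a time, Aldoa minus Aldoc changed by -0.38 to 0.071, Mdh1 minus Mdh2 by -0.55 to -0.31, Pgd by -0.0073 to 0.18, Taldo1 by -0.068 to 0.10 and Tkt by -0.096 to 0.19. Called genes numbered 2 to 5 in MLL-AF1p, 0 to 7 in MLL-ENL and 1 to 7 in MLL-GAS7 against the other cohorts, and 8 to 16 in MLL-GAS7 against normal. The changes of Idh2 (0.47) and Idh3a (0.43) passed with array weights. No paired analysis was possible because the numbers in the labels name single mice and are not shared between groups.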
